A study of Mus musculus with 10 samples.

Results

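Granzymes are serine proteases that cytotoxic lymphocytes store in secretory granules, and perforin is the pore-forming protein released with them. The 9 genes described here are Gzma, Gzmb, Gzmc, Gzmd, Gzme, Gzmf, Gzmg, Gzmk and Prf1, which encodes perforin, out of 19938 genes measured. They were selected on their gene symbol, matched exactly, and a gene with several probe sets would have been represented by the one of highest mean level. Each of the 9 genes had exactly 1 probe set, so choosing by level changed nothing, but the family was picked with the tumour differences already known.

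The tumours were 5 papillary thyroid carcinomas (PTC) with the genotype TPOCreER; BrafV600E and 5 anaplastic thyroid carcinomas (ATC) with TPOCreER; BrafV600E; p53 -/-, all in a mixed C57BL/6;129SvJae background. Both groups therefore carry the Braf mutation, in which V600E names the exchanged amino acid, and an inducible Cre under the thyroid peroxidase promoter. Tumour type and p53 genotype changed together and cannot be told apart. The sources used here do not give age, time after induction or the cells in which p53 was lost. They do not state that each tumour came from its own mouse either, so p-values measure only the spread between these tumours.

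In lymphocytes granzymes enter a target cell through perforin pores and cleave its proteins. Granzyme A is a trypsin-like enzyme, granzyme K is similar to it, and granzyme B cuts after aspartate and starts apoptosis through Bid and caspases. Gzmc, Gzmd, Gzme, Gzmf and Gzmg are rodent genes next to Gzmb on chromosome 14, known from strongly activated T cells and from natural killer cells of the pregnant uterus, and less is known of their substrates. The same cluster holds the mast cell proteases (Mcpt genes), the chymase gene Cma1 and Ctsg, which encodes cathepsin G of neutrophils. Gzma and Gzmk lie on chromosome 13 and Prf1 on chromosome 10.

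The promoters of the chromosome 14 granzymes are shown because genes with nearly the same promoter sequence behaved differently in these tumours. The stretches are the 200 bases before the RefSeq start site, 5′ to 3′ on the gene's strand, in assembly GRCm38.p6, and capitals mark matches to TGTGGT, the core letters bound by RUNX factors, or to its reverse complement. The first pair, Gzme and Gzmd, are neighbours, Gzmg is next in order, and Gzmb stands at the far end.
Gzme (chr14:56120626-56120825, - strand): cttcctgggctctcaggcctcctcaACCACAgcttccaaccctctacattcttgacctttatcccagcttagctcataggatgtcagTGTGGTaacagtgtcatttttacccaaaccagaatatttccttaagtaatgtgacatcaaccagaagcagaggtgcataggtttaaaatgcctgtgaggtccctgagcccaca
Gzmd (chr14:56132594-56132793, - strand): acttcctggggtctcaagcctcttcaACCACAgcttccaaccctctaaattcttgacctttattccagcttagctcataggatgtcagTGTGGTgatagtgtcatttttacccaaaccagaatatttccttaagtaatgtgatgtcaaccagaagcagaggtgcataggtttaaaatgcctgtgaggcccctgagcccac
Gzmg (chr14:56159580-56159779, - strand): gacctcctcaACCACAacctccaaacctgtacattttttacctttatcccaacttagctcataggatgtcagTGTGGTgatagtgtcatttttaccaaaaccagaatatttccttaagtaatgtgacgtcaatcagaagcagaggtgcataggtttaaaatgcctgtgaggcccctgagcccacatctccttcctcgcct
Gzmb (chr14:56262335-56262534, - strand): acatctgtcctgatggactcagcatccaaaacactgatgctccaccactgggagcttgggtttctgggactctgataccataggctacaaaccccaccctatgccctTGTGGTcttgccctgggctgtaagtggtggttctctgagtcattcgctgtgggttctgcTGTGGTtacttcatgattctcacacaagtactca
Over RefSeq's windows of 250 bases before to 50 bases after the start, found for all 9 genes, Gzme and Gzmd were identical at 93.4% of aligned positions. The 10 pairs among Gzmc, Gzmd, Gzme, Gzmf and Gzmg ranged from 73.5% to 93.4%. Gzmb matched these 5 genes at 43.5% to 47.8%, close to the 40.3% to 47.3% at which Prf1 matched the other 11 windows compared, so by promoter sequence Gzmb stands outside the group. All 6 genes from Gzmb to Gzmg had 2 RUNX matches, counting both strands, whereas 16.8% of 32851 windows of the same length held at least 1 and 1.81% at least 2. Of the neighbours compared, Mcpt8 also had 2, Mcpt1 had 1 and Gzmn had 0. The windows of Gzmc, Gzmd, Gzme, Gzmf and Gzmg are close copies, so their matches are not separate observations. In Gzme the matches began 175 and 113 bases before the start and in Gzmd 174 and 112 bases before it. Gzmb alone among the 9 had a match to the AP-1 letters TGANTCA, 58 bases before its start, against 7.81% of windows, and this match did not overlap its RUNX matches. The T-box letters AGGTGT, held by 13.7% of windows, were found in Gzme, Gzmc, Gzma, Gzmk and Prf1, and not in Gzmd, Gzmg, Gzmf or Gzmb; in Gzme they began 3 bases before the start. The STAT letters TTCNNNGAA (8.3% of windows) were found in Gzmb alone, and the GATA letters AGATAA (11.2%) and the TATA box letters TATAAA (13.6%) in none of the 9. Such matches are descriptions of sequence and do not show binding.

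RNA was measured on whole-transcript arrays, and all values below are log2 probe set intensities as deposited. Array medians lay between 7.25 and 7.34, and ATC replicate 5 had the widest distribution and the lowest array weight (0.375). Labelled tissue was checked against thyroid markers: their mean level ran from 8.05 to 9.11 in PTC and from 6.69 to 8.24 in ATC, with 3 of 9 lower in ATC, calls that were lost in many fits that left out 1 tumour. The thyroglobulin gene Tg was lowest in ATC replicate 1 (7.17) and ATC replicate 3 (6.84). In bulk tumour RNA, more cells of a type and more RNA per cell cannot be told apart. A difference of 1 log2 unit is a 2-fold change, and a gene passed when its limma p, adjusted by Benjamini-Hochberg over all genes, was under 0.05.

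Gzmg, Gzmf, Gzmd and Gzmc rose in ATC, by 5.52-fold, 5.37-fold, 4.41-fold and 3.14-fold, and Gzmb rose by 1.43-fold. Gzma, Gzmk and Prf1 did not pass, and neither did Gzme, whose mean was lower in ATC. In all, 5 of the 9 genes rose, 0 fell and 4 did not pass, where 21.2% of all genes tested passed, 11.5% higher in ATC and 9.72% lower. At an unadjusted limma p under 0.05 the members' counts were the same, 5 higher and 0 lower. The share of all genes under that unadjusted cutoff was not counted, here or for the lists below. It is at least the 21.2% that passed after adjustment. The tumour types did not overlap for 4 of the 9, Gzmb, Gzmc, Gzmf and Gzmg, each time with ATC above; 9.13% of all genes had every ATC value above every PTC value and 7.74% had every ATC value below. Of the 19938 genes, 28 rose by more than Gzmg, 32 by more than Gzmf, 43 by more than Gzmd and 94 by more than Gzmc. The median difference over the 9 genes was 0.51, and over all genes it was -0.018. The 9 genes were selected as a family with results of these tumours known, so the counts are a description.

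**Figure D1:**
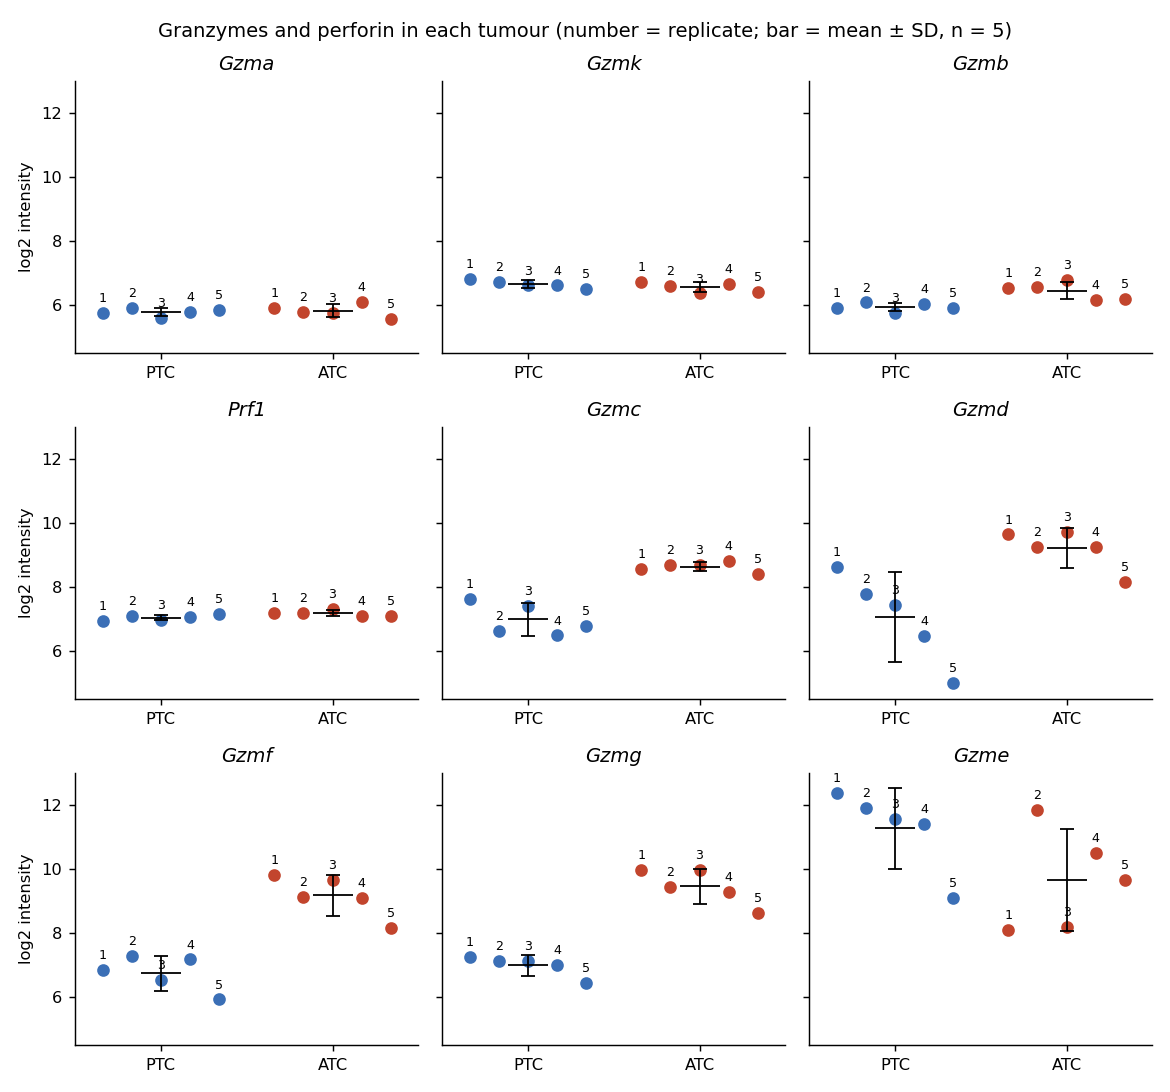
Level of each of the 9 genes in each tumour, as log2 intensity on the vertical axis, with PTC tumours in blue, ATC tumours in red, the replicate number above each point, and the mean ± SD (n = 5) in black. Gzmc, Gzmf and Gzmg separate the tumour types, Gzme is widely spread in both, and Gzma, Gzmk and Prf1 stay within a narrow band.

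Gzmg showed the rise most clearly. Its level was 7.25, 7.11, 7.12, 7.01 and 6.43 in PTC replicates 1 to 5 and 9.97, 9.42, 9.96, 9.27 and 8.62 in ATC replicates 1 to 5. The groups did not overlap, and ATC replicates 1 and 3 were highest. The mean went from 6.98 ± 0.32 (SD, n = 5) to 9.45 ± 0.56 (SD, n = 5), a difference of 2.46 (SE 0.25, 95% interval 1.92 to 3.01, limma adjusted p = 0.000139).

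Gzmf, whose promoter window was 84.5% identical to that of Gzmg, had the same order of ATC tumours. It was at 6.83, 7.27, 6.53, 7.17 and 5.92 in PTC and at 9.80, 9.13, 9.66, 9.08 and 8.15 in ATC, again without overlap. ATC tumours ranked from replicate 1 through 3, 2 and 4 to replicate 5 for both genes. Among PTC tumours replicate 5 was lowest for both, but replicate 2 was highest for Gzmf and replicate 1 for Gzmg. The difference was 2.43 (SE 0.32, 95% interval 1.72 to 3.13, limma adjusted p = 0.00055).

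Gzmd varied most among PTC tumours. Its level was 8.62, 7.79, 7.44, 6.47 and 5.00 in PTC and 9.64, 9.24, 9.73, 9.26 and 8.16 in ATC. The groups overlapped, since PTC replicate 1 lay above ATC replicate 5. The difference of 2.14 (SE 0.58, 95% interval 0.88 to 3.40, limma adjusted p = 0.0215) no longer passed without PTC replicate 4 (1.99, adjusted p = 0.0542).

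Among the 5 genes that rose, Gzmc had the smallest SD in ATC. PTC tumours were at 7.63, 6.62, 7.41, 6.49 and 6.79, and ATC tumours at 8.56, 8.70, 8.70, 8.81 and 8.42, without overlap. The difference was 1.65 (SE 0.20, 95% interval 1.20 to 2.10, limma adjusted p = 0.000374), and the SD was 0.50 in PTC and 0.15 in ATC. ATC replicate 4, among the lower ATC tumours for Gzmf and Gzmg, was highest for Gzmc.

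Gzmb, which encodes the best-studied granzyme, changed less and at a low level. It was at 5.92, 6.09, 5.77, 6.03 and 5.93 in PTC and at 6.54, 6.58, 6.80, 6.17 and 6.21 in ATC. The groups were separate but close, 6.09 against 6.17 at the boundary, with a difference of 0.51 (SE 0.12, 95% interval 0.25 to 0.78, limma adjusted p = 0.0116). In 6 of 10 arrays Gzmb lay below the lower quartile of all probe sets. Detection above background is not given, so a low value bounds the level only loosely and may understate a change.

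Gzma, Gzmk and Prf1 showed no difference past the threshold. Gzma ranged from 5.61 to 5.93 in PTC and from 5.57 to 6.11 in ATC (difference 0.036, 95% interval -0.19 to 0.26, limma adjusted p = 0.852) and lay below the lower quartile in 10 of 10 arrays. Gzmk ranged from 6.52 to 6.82 in PTC and from 6.37 to 6.73 in ATC (difference -0.11, 95% interval -0.30 to 0.092, adjusted p = 0.465). Perforin, Prf1, ranged from 6.94 to 7.15 and from 7.10 to 7.31 (difference 0.14, 95% interval -0.017 to 0.29, adjusted p = 0.203). The upper ends of these 3 genes' intervals lie below the lower ends of the intervals of Gzmc, Gzmd, Gzmf and Gzmg. Of the granzyme genes outside the 9, Gzmm, on chromosome 10 with Prf1, fell by 0.32 (adjusted p = 0.0286), and leaving out PTC replicate 1, 2 or 4 or any of ATC replicates 1, 3 and 5 ended the call (adjusted p from 0.0513 to 0.0707). Gzmn, which lies between Gzmg and Gzmf, had a mean of 5.06 ± 0.15 in PTC against 4.92 ± 0.16 in ATC, and the difference of -0.14 did not pass (adjusted p = 0.367), although both of its flanking granzymes rose. Gzmn lay below the lower quartile in every array, so a change in it may be understated. Its promoter window matched those of Gzmg and Gzmf at 47.7% and 50%.

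Gzme took another course from Gzmd, its neighbour with the nearly identical promoter. Its level was 12.36, 11.90, 11.56, 11.40 and 9.09 in PTC and 8.08, 11.83, 8.19, 10.49 and 9.64 in ATC. PTC replicate 5 was low among PTC tumours, ATC replicate 2 was as high as the PTC tumours, and ATC replicates 1 and 3 were the lowest of all. Means were 11.26 ± 1.27 and 9.65 ± 1.58 (SD, n = 5 each), and the difference of -1.61 (SE 0.77, 95% interval -3.29 to 0.065) did not pass (limma adjusted p = 0.169). Without ATC replicate 2 it passed, at -2.16 (adjusted p = 0.0456), and without PTC replicate 5 it was -2.16 (adjusted p = 0.0532). ATC replicates 1 and 3, lowest in Gzme, were the highest in Gzmd, Gzmf and Gzmg, whereas among PTC tumours replicate 1 was highest and replicate 5 lowest for both Gzme and Gzmd.

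The array's probe sequences were not used here, and these paralogues are similar, so how far each probe set also reads its neighbours was not tested. In PTC both genes ran from replicate 1 down to replicate 5. In ATC the tumours lowest in Gzme, replicates 1 and 3, were highest in Gzmd, while replicate 5 was lowest in Gzmd and between the others in Gzme.

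Gzme moved with Mcpt8, Mcpt2 and Mcpt1, protease genes of its own end of the cluster. By the correlation of deviations from the group means over the 10 arrays, the genes most like Gzme among all 19938 were Mcpt8 (r = 0.966), a basophil protease gene, Pof1b (0.961), an epithelial gene, and Mcpt2 (0.943), a mucosal mast cell protease gene; Mcpt1 was at 0.927. Leaving out PTC replicate 5 and ATC replicate 2, the values farthest from the median, gave 0.919, 0.871, 0.881 and 0.857. Other genes of that end were less like Gzme, with Ctsg at 0.62 and Mcpt4 at 0.51. The mast cell gene Cpa3 was at 0.38 with Gzme, and at 0.015 without those tumours. The arrays are shared by both genes of a pair, and these values are descriptions. The nearest genes were picked as the highest r among all genes. For the other members the highest r ran from 0.938 (Gzmd) to 0.967 (Gzma), so an r of this size is not particular to Gzme.

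Mcpt8 was at 12.45, 12.03, 11.86, 11.75 and 9.40 in PTC and at 7.12, 12.14, 8.28, 9.63 and 8.99 in ATC. The tumours that were low or high for Gzme were so for Mcpt8. The difference of -2.26 did not pass (SE 0.84, limma adjusted p = 0.08), but it did without PTC replicate 5 (-2.79, adjusted p = 0.0358) or ATC replicate 2 (-2.99, adjusted p = 0.00773). Mcpt1 ran from 7.23 to 10.93 in PTC and from 4.68 to 11.14 in ATC (difference -1.99, adjusted p = 0.248), and passed without ATC replicate 2 (-2.95, adjusted p = 0.0318). Mcpt2 ran from 6.86 to 11.13 and from 5.35 to 11.39 (difference -1.19, adjusted p = 0.523).

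**Figure D2:**
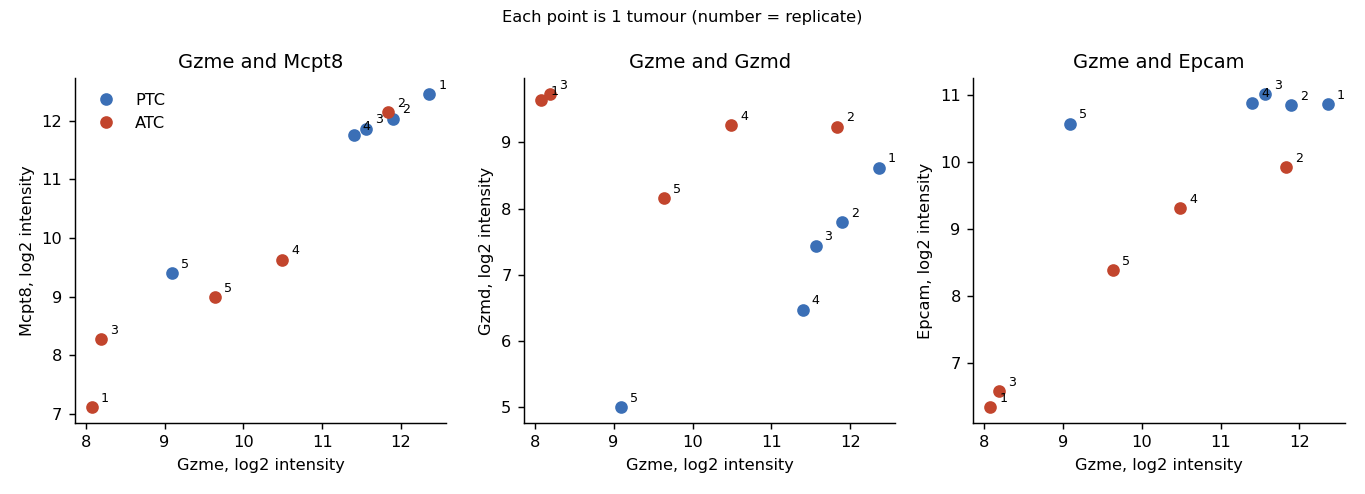
Gzme on the horizontal axis against Mcpt8, Gzmd and Epcam on the vertical axes, all as log2 intensity, with 1 point per tumour, PTC in blue, ATC in red, and the replicate number beside it. Tumours high in Gzme were high in Mcpt8 in both tumour types, whereas Gzmd was above 9 in the ATC tumours lowest in Gzme and overlapped between the types (8.62 in PTC replicate 1, 8.16 in ATC replicate 5); PTC replicate 5, with Gzme at 9.09, keeps a high Epcam of 10.57.

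Epcam, the epithelial adhesion molecule gene, was low in the same ATC tumours as Gzme: 6.34 in ATC replicate 1 and 6.58 in ATC replicate 3, against 9.92 in ATC replicate 2. In PTC it stayed between 10.57 and 11.01, also in replicate 5, where Gzme was low. The correlation of deviations between Gzme and Epcam was 0.813, and 0.929 without PTC replicate 5 and ATC replicate 2. The T cell marker gene Cd3g was at 0.85 with Gzme over the 10 arrays, and at 0.573 without those tumours. Cd3g was at 8.19, 8.22, 8.45, 7.44 and 7.32 in PTC and at 5.96, 7.73, 6.23, 6.56 and 6.43 in ATC, so that PTC replicate 5 and ATC replicates 1 and 3 were the lowest of their groups, as for Gzme. Other marker genes set beside Gzme were Krt19 at 0.755 (0.902 without those tumours), Cdh1 at 0.711 (0.871) and Tg at 0.649 (0.905). The cytokine receptor gene Il18r1 was at 0.779 with Gzme (0.887 without those tumours), and at 0.98 with Epcam over the 10 arrays. Among 7 epithelial markers 5 fell and 0 rose in ATC, with a mean level of 10.86 to 11.05 in PTC and 8.28 to 10.05 in ATC; their part and that of T cells in the Gzme values was not tested. Gzme with Gzmd gave a correlation of deviations of 0.435, which was -0.076 without PTC replicate 5 and ATC replicate 2, and with Gzmg -0.031, which was -0.648. Gzmf with Gzmg was at 0.90 (0.623 without ATC replicate 5 and PTC replicate 5), and Gzmd with Gzmg at 0.771 (0.804 without PTC replicates 1 and 5).

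**Figure D3:**
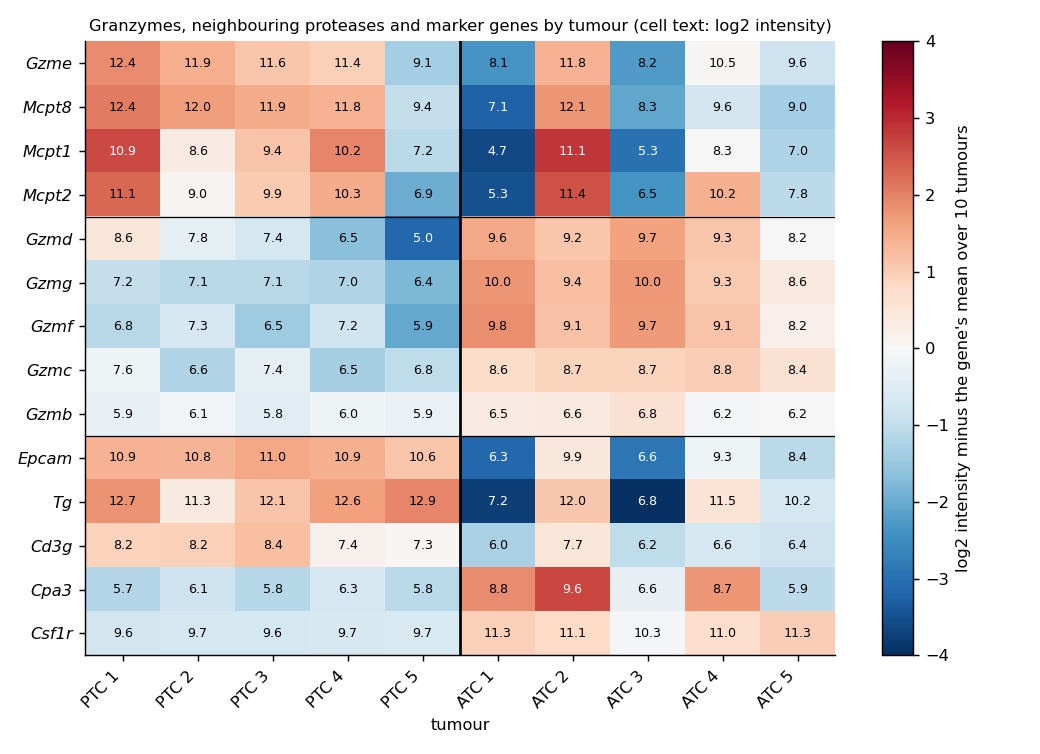
Log2 intensity of Gzme with 3 mast cell protease genes (top block), the other chromosome 14 granzymes (middle block) and marker genes (bottom block) in each tumour, printed in the cell and coloured by its distance from that gene's mean over the 10 tumours. The top block is lowest in ATC replicates 1 and 3 and also low in PTC replicate 5 and ATC replicate 5, and the middle block is higher in ATC throughout, apart from PTC replicate 1 for Gzmd.

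Position along the chromosome separated the patterns only in part. In the order of the RefSeq gene table the cluster runs Cma1, Mcpt1, Mcpt2, Mcpt4, Mcpt8, Ctsg, Gzme, Gzmd, Gzmg, Gzmn, Gzmf, Gzmc and Gzmb, counting measured genes. Ctsg, between Mcpt8 and Gzme, stood at 6.02 ± 0.09 in PTC and 6.05 ± 0.29 in ATC, a difference of 0.030 (limma adjusted p = 0.897), and Mcpt4, beside Mcpt8 on the other side, differed by 0.40 (adjusted p = 0.535). Of 7 measured members of the list of cluster neighbours that are not among the 9, 0 rose and 0 fell, and at an unadjusted p under 0.05 Mcpt8 alone was lower. Of all genes, 21.2% passed at the adjusted threshold. Outside the cluster, Nynrin (-0.92, adjusted p = 0.0195), Sdr39u1 (-0.60, adjusted p = 0.0171) and Rnf17 (-0.38, adjusted p = 0.0324) fell, and Cbln3, Khnyn, Atp12a and Cenpj did not pass. The rises were thus found between Gzmd and Gzmb among the 20 measured genes of this stretch, and Gzmn inside it did not pass. Gzmn ranged from 4.71 to 5.21, below the lower quartile of every array (6.02 to 6.19), so a change in it may be understated. Ctsg also lay below that quartile in most arrays.

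**Figure D4:**
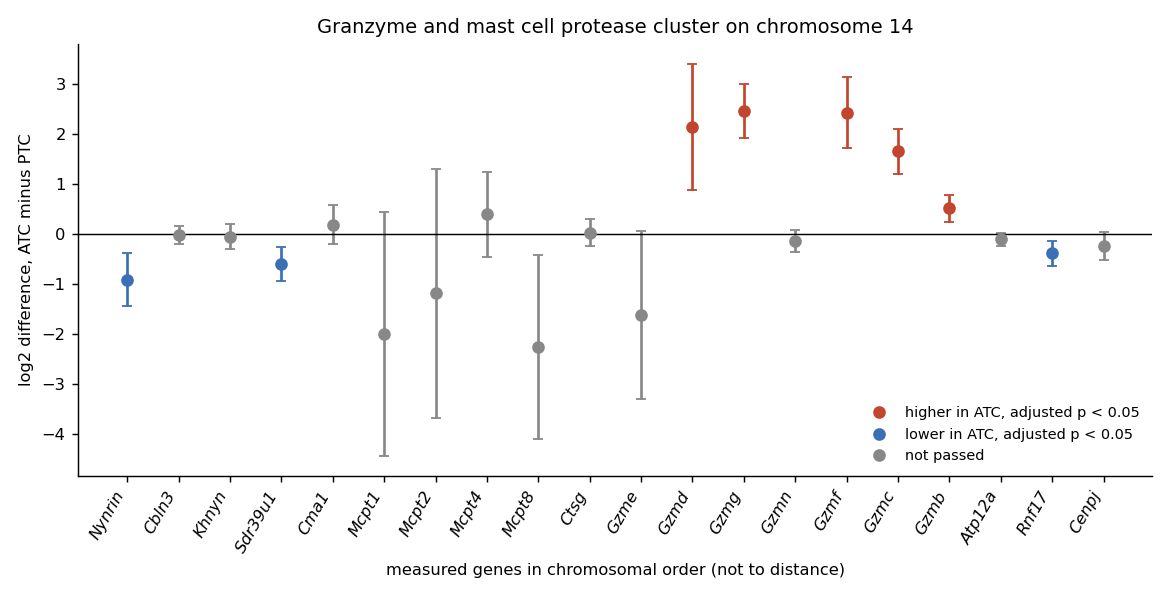
Log2 difference, ATC minus PTC, with its 95% interval, for the 20 measured genes of the chromosome 14 stretch in chromosomal order, which is not drawn to distance. Red marks genes higher in ATC at an adjusted p under 0.05, blue genes lower, and grey genes that did not pass; Gzmd, Gzmg, Gzmf, Gzmc and Gzmb are red, and Gzmn among them is grey.

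For the other members, the genes most alike in their deviations differed from gene to gene. Those of Gzma were the olfactory receptor genes Olfr916 (0.967), Olfr1271 (0.944) and Olfr470 (0.943), which are not known for a role in thyroid or lymphocytes. For Gzmb they were Rbx1 (0.96), Chmp3 (0.935) and Tmx2 (0.931), for Gzmf Hdac2 (0.955), Gtsf1 (0.954) and Chmp5 (0.942), and for Gzmg C1galt1 (0.965), A930003A15Rik (0.964) and Snrnp27 (0.962). None of the 3 genes nearest to any of the 9, other than Mcpt8 and Mcpt2 for Gzme, was a granzyme, perforin or mast cell protease gene.

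The genes that load and release granules moved in both directions. There were 3 that rose, 8 that fell and 5 that did not pass among 16 measured, with a median of -0.29. So 68.8% passed, against 21.2% of all genes (11.5% higher and 9.72% lower). Without PTC replicate 3 or ATC replicate 1, 5 fell. Srgn, which encodes serglycin, the proteoglycan that holds granzymes in the granule, rose by 0.68 (SE 0.15, limma adjusted p = 0.00856), and the granule membrane genes Cd63 and Lamp1, named after their values were seen, rose by 0.41 and 0.26. Rab27a, a GTPase gene of granule docking, fell by 1.52 (SE 0.20, adjusted p = 0.000536), from 8.56 ± 0.22 to 7.04 ± 0.47, Lyst fell by 0.76, and Vamp8 fell by 0.72. Ctsc, the protease that activates pro-granzymes, was at 12.40 ± 0.17 and 12.03 ± 0.31 (difference -0.37, adjusted p = 0.0915). Leaving out ATC replicate 2 brought it past the threshold (-0.49, adjusted p = 0.0151), as did a repeated quantile normalization (-0.45, adjusted p = 0.0398). Nkg7, a granule membrane gene of T and natural killer cells, was near the threshold (-0.20, adjusted p = 0.048) and no longer passed in 13 of 19 alternatives. Many of these genes are also active in macrophages and epithelial cells.

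Among 4 genes of granzyme inhibitors, 3 fell in ATC, 0 rose, and Serpinb9b missed the threshold with a higher mean in ATC. Of all genes 21.2% passed, and 9.72% fell. Serpinb9, the inhibitor of granzyme B, was at 8.72, 9.06, 8.92, 8.65 and 8.87 in PTC and at 6.94, 7.71, 6.28, 6.70 and 7.30 in ATC. The groups did not overlap, and the difference was -1.86 (SE 0.22, 95% interval -2.35 to -1.37, limma adjusted p = 0.000321), a 3.63-fold fall. Serpinb6b, an inhibitor of granzyme A, fell from 10.17 ± 0.31 to 8.23 ± 0.74 (difference -1.94, SE 0.31, adjusted p = 0.00131). Serpina3n fell by 1.00 (adjusted p = 0.0284), a call that leaving out PTC replicate 2, PTC replicate 3 or ATC replicate 1 ended (adjusted p from 0.0655 to 0.0691), and Serpinb9b differed by 0.26 (adjusted p = 0.399). ATC replicate 3 was the lowest for both Serpinb9 and Serpinb6b and among the highest for Gzmd, Gzmf and Gzmg. However, ATC replicate 4 was lower than replicate 1 in Serpinb9 (6.70 against 6.94) and also in these granzymes. Both inhibitors were highest in ATC replicate 2, whereas these granzymes were lowest in ATC replicate 5. A link between them was not tested.

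Among 11 measured genes of granzyme targets 3 rose and 0 fell, with a median of 0.15, so 27.3% passed against 21.2% of all genes. Hmgb2, Apex1 and Nme1, members of the SET complex that granzyme A acts on, rose by 0.58, 0.44 and 0.40 (limma adjusted p = 0.0284, 0.00219 and 0.0127), all genes with wide roles in chromatin, DNA repair and nucleotide metabolism. Hmgb2 had 4 probe sets, of which the one with the highest mean level was used. Leaving out PTC replicate 4 or 5, or one of ATC replicates 2 and 5, ended the Hmgb2 call (adjusted p from 0.0575 to 0.0638). Bid, the granzyme B target, was at 7.75 ± 0.13 and 7.89 ± 0.20 (difference 0.15, adjusted p = 0.365).

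The transcription factors and cytokines that switch granzyme genes on in lymphocytes passed about as often as genes in general: 18.2% of the factors and 21.4% of the cytokine and receptor genes, against 21.2% of all genes. Of 11 measured factors Zeb2 rose (1.00, limma adjusted p = 0.000591) and Irf4 fell (-0.64, adjusted p = 0.0173). Zeb2 is also a factor of macrophages and mesenchymal cells. Tbx21, which encodes T-bet, differed by -0.048 (adjusted p = 0.8), Eomes by 0.099 (adjusted p = 0.683) and Prdm1 by 0.15 (adjusted p = 0.522). Of 14 cytokine and receptor genes 1 rose and 2 fell. The receptor gene Il18r1 fell from 11.23 ± 0.22 to 8.09 ± 1.65 (difference -3.15, SE 0.63, adjusted p = 0.00468), and its ATC tumours were at 6.57, 9.95, 6.35, 9.50 and 8.05, lowest in replicates 1 and 3 as for Gzme and Epcam. Il21r rose by 0.41, a call that ended without both replicates 5 (0.35, adjusted p = 0.054), and Il12rb2 fell by 0.61, a call that ended on leaving out any of PTC replicates 1, 2 and 3 or of ATC replicates 1, 4 and 5 (adjusted p from 0.0605 to 0.0883). Interferon gamma, Ifng, was at 6.77 ± 0.05 and 6.78 ± 0.07 (difference 0.0081, adjusted p = 0.947), and Il15 and Il2rb differed by -0.18 and -0.095 (adjusted p = 0.606 and 0.446). Of 8 genes of the death receptor route Tnfsf10, the TRAIL gene, fell by 0.91 (adjusted p = 0.00107), Lta fell by 0.35 (adjusted p = 0.0192, and 0.06 with the replicate number as a block) and 0 rose. So 25% of these 8 passed, near the 21.2% of all genes. Fasl differed by -0.10 (adjusted p = 0.438).

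No marker of the lymphocytes that make granzymes passed the limma test as higher in ATC. Of 15 T cell markers 4 fell and 0 rose, with a mean level of 6.88 to 7.19 in PTC and 6.52 to 6.91 in ATC. In either direction 26.7% of them passed, near the 21.2% of all genes, of which 9.72% were lower in ATC. Cd2 fell by 1.57 (SE 0.21, limma adjusted p = 0.000503), Cd3g fell by 1.34 (SE 0.32, adjusted p = 0.0127), Cd28 fell by 0.88, and Cd3e fell by 0.43. The coreceptor genes Cd4, Cd8a and Cd8b1 differed by -0.23, -0.19 and -0.039 (adjusted p = 0.156, 0.231 and 0.815). Of 11 markers of natural killer cells and ILC1, innate lymphoid cells related to them, 3 fell and 0 rose (Itga1 -1.06, Klrk1 -0.90 and Itga2 -0.72), with a mean level of 6.49 to 6.76 in PTC and 6.14 to 6.48 in ATC. Itga1 and Itga2 are integrins of other cells too, and the Itga2 call was lost on leaving out ATC replicate 5 or one of PTC replicates 1, 2 and 3 (adjusted p from 0.0586 to 0.0694). Ncr1, the natural killer receptor gene, was at 5.47 ± 0.08 and 5.64 ± 0.30 (difference 0.17, adjusted p = 0.41), and Klrb1c differed by -0.14 (adjusted p = 0.325). Ncr1 and Klrb1c lay below the lower quartile of all probe sets in every array, so a change in them may be understated. Of 5 gamma delta T cell markers 4 fell, among them Il23r (-0.83), and of 5 regulatory T cell markers 2 fell, Tnfrsf18 (-0.98) and Ikzf2 (-0.78), while Foxp3 differed by -0.16 (adjusted p = 0.244). In these 4 lists, of 36 genes, 0 were higher and 17 lower at an unadjusted p under 0.05. At least 21.2% of all genes lay under that cutoff, and their exact share was not counted. At the adjusted threshold 27.3% of the natural killer and ILC1 markers passed, again near the 21.2% of all genes. The share was 80% for the gamma delta T cell markers and 40% for the regulatory T cell markers, lists of 5 genes each.

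**Figure D5:**
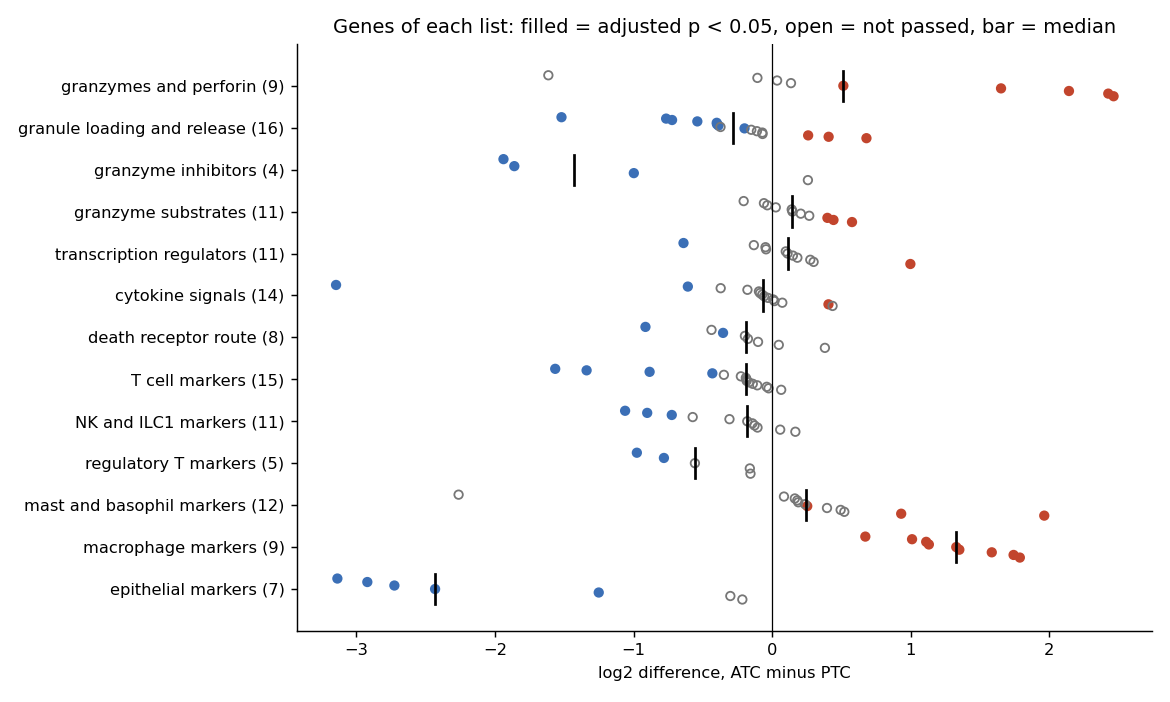
Log2 difference, ATC minus PTC, of every measured gene in 13 lists, with the number of genes in parentheses, filled points for an adjusted p under 0.05, open points for genes that did not pass, and a bar at the median. The granzymes of the top row reach 2.46, while no T cell, natural killer or regulatory T cell marker is filled on the right of 0.

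Other cells that can hold granzymes or neighbouring proteases were examined in the same way. Of 12 mast cell and basophil markers 3 rose and 0 fell, with a mean level of 6.35 to 6.69 in PTC and 6.30 to 7.44 in ATC. So 25% passed, near the 21.2% of all genes. On leaving out any single PTC replicate or ATC replicate 1, 2 or 4, 1 rose, and without ATC replicate 5, 5 rose. The mast cell carboxypeptidase gene Cpa3 was at 5.74, 6.09, 5.78, 6.26 and 5.83 in PTC and at 8.81, 9.58, 6.58, 8.69 and 5.87 in ATC. It was high in ATC replicates 1, 2 and 4, of which Mcpt8 was high in replicate 2 alone and lowest in replicate 1. The Cpa3 difference was 1.96 (SE 0.61, limma adjusted p = 0.0397), a call lost on leaving out any single PTC replicate (1.91 to 2.04, adjusted p from 0.064 to 0.0821) or one of ATC replicates 1, 2 and 4 (1.55 to 1.77, adjusted p from 0.0716 to 0.0893). The IgE receptor gene Fcer1a rose by 0.93 (adjusted p = 0.0108). Of 5 plasmacytoid dendritic cell markers Tcf4 rose (0.99), a gene of many tissues, and Siglech differed by -0.093 (adjusted p = 0.543). All 9 macrophage markers rose, with a mean level of 9.43 to 9.86 in PTC and 10.64 to 11.28 in ATC, and the tumour types did not overlap for any of them. Of all genes 11.5% rose, and 9.13% had every ATC value above every PTC value. The macrophage marker Csf1r was at 11.29, 11.14, 10.29, 11.03 and 11.32 in ATC replicates 1 to 5. The mean of the 9 markers was 11.17, 10.88, 10.64, 11.01 and 11.28, so replicate 3 was lowest and replicate 5 highest for both. Among ATC tumours, Gzmd, Gzmf and Gzmg were highest in replicates 1 and 3 and lowest in replicate 5. The part of macrophages or mast cells in the granzyme values was not tested. Of 5 B cell markers 1 fell and 0 rose. So 20% of these passed, as of the plasmacytoid dendritic cell markers, near the 21.2% of all genes. Of 8 neutrophil markers 0 passed by limma, and 3 fell without PTC replicate 5. At an unadjusted p under 0.05, a cutoff that at least 21.2% of all genes met, 2 of these 8 were lower.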

How the data were processed

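Per the labels' protocols, biotin-labelled RNA of 10 mouse thyroid tumours was measured on whole-transcript Affymetrix arrays. The deposited table holds 35556 probe sets on 10 arrays. Its scale is not stated, and the range of the deposited values (2.79 to 14.15) is that of normalized log2 intensities, which they were taken to be. Affymetrix Power Tools and limma are named in the submitters' processing notes; the sources used here give no background correction, normalization or genome build. Detection calls are not given, so changes of dim genes may be understated.

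Probe sets with 1 symbol (21789) were reduced to 19938 genes by the highest mean. The contrast ATC minus PTC was tested in limma 3.58.1 (R 4.3.3; lmFit, eBayes) on all 10 arrays without covariates, with Benjamini-Hochberg adjustment over all genes at 0.05. The number of arrays limits the precision. In data simulated for 19938 genes from the tumours' own means and spread, a change of 0.5 log2 units was recovered in 58% of 50 genes, a change of 1 in 94%, a change of 2 in 100% and a change of 3 in 98%, and 3.85% of 182 calls were false. Only 50 genes were changed at each size, with normally distributed noise. That is a smaller share than the 21.2% of genes that passed here, so these rates need not hold for the tumours.

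The genes and the lists (8 gene lists and 11 marker lists, 164 of 179 entries measured) were chosen with earlier results of these data known; lists were described by counts, with no test of a list. Genes named were the 9 members, up to 4 called genes with the largest difference in each list, classical genes fixed with the lists, and the 3 genes most correlated with each member; Mcpt1, Mcpt2, Tg, Cd63, Lamp1 and the genes flanking the cluster were named after their values were seen. Promoters are RefSeq windows of GRCm38.p6, aligned globally in Biopython 1.88, and motifs were chosen after the values were seen. Gene order came from the RefSeq table of the same assembly. Replicate numbers did not pair the tumours.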

Additional observations from a re-analysis of the deposited data

Results flagged for a closer look

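An outlying tumour was looked for in each group of 5 tumours for 80 named genes, in 160 gene and group pairs, by the gap of the highest or lowest tumour relative to the range. Chance alone marks about 1 in 20 such groups, and 7 were marked, none of them for the 9 granzyme and perforin genes. PTC replicate 5 accounted for 5 of them. Its Mcpt8 was 9.40, against 11.75 to 12.45 in the other PTC tumours, its Klrk1 was 6.19 against 6.74 to 6.93, its Msr1 was 9.07 against 10.16 to 10.39, its Nme1 was 8.44 against 8.70 to 8.78 and its Sox13 was 8.49 against 8.09 to 8.12. ATC replicate 3 had the lowest Csf1r of the ATC tumours, 10.29 against 11.03 to 11.32. ATC replicate 5 had the lowest Cd79b, 6.86 against 7.24 to 7.27.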

How the results depend on the processing

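The rises of Gzmb, Gzmc, Gzmf and Gzmg kept their direction and passed in every alternative run for them: a replicate block, mean or all probe sets, repeated quantile normalization, median centring, array weights, robust estimation with a variance trend, each array left out, and PTC replicate 5 and ATC replicate 5 left out together, which was chosen after seeing the data. Filters on dim genes removed Gzma and Gzmb at the 25th percentile of gene means, and also Gzmk and Prf1 at the median, and gave no value for them. With each array left out, Gzmd ranged from 1.62 to 2.53 and ended its call once, Gzme ranged from -2.16 to -1.22 and passed once, and Gzma ranged from -0.034 to 0.10 and changed sign without a call on leaving out PTC replicate 3 (-0.0091) or ATC replicate 4 (-0.034). The count of members that fell was 0 to 1 over these fits. Replicate numbers had correlations of deviations of -0.0858 to 0.12 and did not pair the tumours. With the replicate block, 2063 genes were higher and 1699 lower, against 2297 and 1937, and the same 5 members passed. Sign changes without a call were also seen for Cd8b1 (0.012 with quantile normalization, 0.00062 with median centring, and -0.085 to 0.015 with arrays left out), Tbx21 (0.013 with quantile normalization, 0.011 with array weights, 0.062 without both replicates 5, and -0.11 to 0.030 with 1 array left out), Ctsg (-0.075 to 0.11 with 1 array left out), Mcpt4 (-0.010 to 0.68) and Ifng (-0.020 to 0.035 with arrays left out, and -0.0046 without PTC replicate 1). The cause was not tested.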
